A study of Mus musculus with 12 samples.

Results

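The Slc2a genes encode the GLUT proteins, membrane transporters that carry glucose, fructose and related molecules down their concentration gradient. The H3K9/14ac mark, histone H3 acetylated on lysines 9 and 14, was compared at 9 of these genes in T helper 17 (Th17) cells. The cells came from wild-type mice or from conditional knockout mice of Slc2a3, the gene that encodes GLUT3. The 9 members were taken by name: Slc2a1, Slc2a3, Slc2a4, Slc2a6, Slc2a8, Slc2a9, Slc2a10, Slc2a12 and Slc2a13, out of 21900 protein-coding genes. Each was examined over its gene span on GRCm38 plus 5 kb to each side. Of the 40909 regions in the authors' deposited table of differential acetylation, 25 lay there.

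The wild type (WT) group held 3 ChIP libraries of C57BL/6 mice, and the knockout (KO) group held 3 ChIP libraries of C57BL/6 mice of the genotype Slc2a3-fl/fl Cd4-cre. In both groups naive T cells were cultured for 3 days under Th17 conditions and then stimulated for 3 h with PMA and ionomycin while Bref A and Monensin were present. The 6 barcoded samples shared a single immunoprecipitation with 5 µg of antibody, and the 6 input libraries were not used here. Cd4-cre deletes the floxed gene wherever Cd4 regulatory sequences have been active, which includes T cells developing in the thymus. The labels give the WT cells neither Cre nor floxed alleles, so an effect of Cre or of earlier T cell development cannot be told apart from the loss of GLUT3 in the Th17 cell. They give no age or sex of the mice, and do not say whether the 3 libraries of a genotype came from separate animals, so the spread between them may be technical.

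Libraries of the KO group were shallower. Mean coverage, the number of fragments over an average base as recovered from the peak lists, was 2.97 to 3.98 in WT and 1.85 to 2.29 in KO, and peaks covered 65.2 to 70.5 Mb in WT and 53.7 to 58.4 Mb in KO. KO replicate 3 had 11 peaks on chromosome Y where the other libraries had 1 or 2, and the cause was not tested. Of 10 Th17 marker genes 8 had a peak in every library, and Il22, a Th17 cytokine gene, had none in any. Peaks over the Th17 markers summed to 226667 to 258633 bp in WT and 114817 to 132920 bp in KO. Markers of other blood cells were mixed. Of 5 myeloid markers, 3 had peaks in every library, with summed covered bp of 12364 to 13740 in WT and 6507 to 8514 in KO. Of these, Spi1 was lower in every KO library (7157 to 8206 bp in WT, 1686 to 3402 bp in KO), while Itgam and Csf1r overlapped between genotypes. Of 4 B cell markers, Cd79a alone had peaks in every library (7402 to 8234 bp in WT and 5840 to 7022 bp in KO). The 5 markers of CD8 T and NK cells summed to 2107 to 2786 bp in WT and 476 to 1323 bp in KO. There, Cd8b1 had peaks in every library and was lower in every KO library, and Prf1 had peaks in 5 of 6 libraries. The 4 erythroid markers summed to 2081 to 3204 bp in WT and 1336 to 1787 bp in KO, with peaks in every library at Epor alone. Cd8a, Ncr1 and Klrb1c, Ms4a1 and Pax5, Lyz2 and Adgre1, and Hba-a1 and Gata1 of these lists had no peak in any library. Whether such cells had a part in any value below was not tested. In these bulk samples, fewer acetylated cells and less acetylation per cell cannot be told apart.

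GLUT proteins fall into several classes by sequence. GLUT1, GLUT3 and GLUT4 are class I glucose transporters, GLUT9 is a class II member best known for carrying urate, and GLUT6, GLUT8, GLUT10, GLUT12 and the proton-coupled myo-inositol transporter HMIT (Slc2a13) belong to class III. Activated T cells take up glucose mainly through GLUT1 and GLUT3. H3K9/14ac marks active promoters and enhancers, so a peak over one of these genes shows where its chromatin was acetylated, not how much transporter the cell makes.

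The promoter windows of 4 members are shown because a peak overlapped 3 of them in all 6 libraries and that of Slc2a9 in none. The Slc2a9 window lies inside the gene span, whose upper end is 19.8 kb upstream of the annotated start. Whether Slc2a9 has another start further upstream was not examined, so its window need not be the gene's main promoter. RefSeq promoter windows on GRCm38.p6 run from 250 bases before to 50 bases after the annotated start. They were found for 7 of the 9 members, all but Slc2a3 and Slc2a4. Capitals mark every match, on either strand, to ACGTG or GCGTG, the letters at the core of the hypoxia response element. Slc2a1 lies at chr4:119108495-119108794 on the plus strand, Slc2a6 at chr2:27027949-27028248, Slc2a8 at chr2:32982034-32982333 and Slc2a9 at chr5:38483336-38483635, these 3 on the minus strand.
Slc2a1: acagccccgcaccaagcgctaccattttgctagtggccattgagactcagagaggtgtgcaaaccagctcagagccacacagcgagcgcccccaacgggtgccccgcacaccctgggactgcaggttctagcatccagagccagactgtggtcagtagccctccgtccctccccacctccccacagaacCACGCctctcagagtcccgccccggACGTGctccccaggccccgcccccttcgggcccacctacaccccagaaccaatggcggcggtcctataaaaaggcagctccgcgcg
Slc2a6: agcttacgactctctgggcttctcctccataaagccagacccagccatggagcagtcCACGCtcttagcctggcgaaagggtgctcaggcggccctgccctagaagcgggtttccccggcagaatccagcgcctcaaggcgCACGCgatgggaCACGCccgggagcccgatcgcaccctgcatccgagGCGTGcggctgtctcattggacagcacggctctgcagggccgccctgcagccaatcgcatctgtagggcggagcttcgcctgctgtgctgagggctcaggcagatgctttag
Slc2a8: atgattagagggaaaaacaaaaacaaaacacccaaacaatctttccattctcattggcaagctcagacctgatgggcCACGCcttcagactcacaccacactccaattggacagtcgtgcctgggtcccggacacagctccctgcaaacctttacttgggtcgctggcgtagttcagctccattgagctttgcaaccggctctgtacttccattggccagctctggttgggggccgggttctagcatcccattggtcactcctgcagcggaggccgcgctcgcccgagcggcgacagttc
Slc2a9: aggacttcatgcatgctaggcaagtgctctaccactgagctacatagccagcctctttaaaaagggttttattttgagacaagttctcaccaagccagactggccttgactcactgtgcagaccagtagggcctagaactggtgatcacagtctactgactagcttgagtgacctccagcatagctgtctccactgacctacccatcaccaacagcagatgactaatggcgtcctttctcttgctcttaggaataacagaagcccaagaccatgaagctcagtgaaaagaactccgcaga
The first 3 of these windows, of Slc2a1, Slc2a6 and Slc2a8, were overlapped by a peak in all 6 libraries, and the Slc2a9 window by a peak in none. They differ in CpG content, given as CpG observed over expected, the number of CG pairs relative to that expected from the C and G content. This was 0.605 for Slc2a1, 0.703 for Slc2a6 and 0.612 for Slc2a8, against 0.116 for Slc2a9. The remaining windows, of Slc2a10, Slc2a12 and Slc2a13, lay between, at 0.464, 0.369 and 0.432. The Slc2a10 and Slc2a13 windows had no peak in any library, and 5 bases of the Slc2a12 window were covered in KO replicates 1 and 2. Over all 32851 RefSeq promoters the median was 0.384, and a peak in all 6 libraries overlapped 63.0% of the promoters at or above 0.6 and 9.80% of those below. ACGTG occurred once in the Slc2a1 window and once in that of Slc2a10, and in 19.6% of all promoters. GCGTG occurred 4 times in Slc2a6, once in Slc2a1 and once in Slc2a8, and in 32.4% of all promoters. CACGTG, the E-box, which contains ACGTG, was in none of the 7 windows and in 7.15% of all promoters.

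Slc2a3, the targeted gene, encodes GLUT3, a glucose transporter of high affinity. It is on chromosome 6 (122727809 to 122802363). Peaks over the gene and its flanks covered 12507, 12443 and 12461 bp in WT replicates 1 to 3 and 3822, 5427 and 6128 bp in KO replicates 1 to 3. All KO libraries lay far below all WT libraries, at 0.411 of the WT mean (two-sided exact permutation test over 3 libraries per genotype, p = 0.1, adjusted p = 0.233 over the 7 members with a peak). With 3 libraries against 3, 0.1 is the smallest p that the test can give. Covered bp were lower in every KO library for 41.3% of the 14016 genes with a peak in any library, so this order alone does not set the gene apart. Its ratio was lower than that of all but 6.47% of the genes with peaks in both genotypes, whose median was 0.836.

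Peaks of the 6 libraries that overlapped were joined into blocks. The summit height of each block was divided by the library's mean coverage, which scales the libraries to equal mean coverage. Such scaling would remove a difference between genotypes that is shared by the whole genome, and whether there was one was not tested. How depth itself affects summit height was not tested either. At the upper end of the Slc2a3 span (122800494 to 122803076) the summit stood at 83.7, 86.4 and 93.3 times the mean coverage in WT and at 44.3, 42.8 and 46.9 times in KO. Every KO summit was thus well below every WT summit, with a ratio of means of 0.509 (exact permutation p = 0.1, two-sided). A block toward the other end of the gene (122740318 to 122743445) was lower by a similar factor. Its summits were 31.3, 37.3 and 39.7 in WT and 15.1, 18.8 and 21.4 in KO, a ratio of 0.510 (exact permutation p = 0.1, two-sided). The authors' own fold enrichment at the upper end was 9.32, 13.9 and 10.8 in WT and 8.54, 6.75 and 8.89 in KO, again without overlap. At the block toward the other end it did overlap, at 2.95, 6.68 and 7.38 in WT and 2.81, 2.67 and 5.81 in KO. Among all 20107 blocks with a peak in every library the median ratio was 1.03. Of these blocks, 1.95% had a ratio lower than the upper-end block and 1.99% a ratio lower than the block toward the other end.

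The middle of Slc2a3 was less uniform. A block at 122762344 to 122765817 had summits of 33.6 to 35.3 in WT and 25.4 to 31.3 in KO, a ratio of 0.801, while its mean covered bp were 3185 in WT and 1035 in KO. The neighbouring block at 122754786 to 122758613 had overlapping groups, with summits of 23.0 to 29.3 in WT and 15.7 to 23.6 in KO (exact permutation p = 0.2, two-sided). Between them, the blocks at 122759058 to 122759922 and at 122760709 to 122762026 had a peak in every WT library and in no KO library. By the authors' fold enrichment the groups overlapped at 122762344 to 122765817, with means of 5.59 in WT and 3.87 in KO. They overlapped as well at 122754786 to 122758613, with means of 3.73 in WT and 4.09 in KO. The authors' deposited table called 8 of the 9 Slc2a3 regions lower at an FDR under 0.05, and their log2 fold changes ran from -1.97 to -0.92. The exception, at 122757451 to 122757750, had -0.52 (FDR 0.135) in the authors' deposited table. The same calls were made for 46.3% (lower) and 12.7% (higher) of all regions of the authors' deposited table, whose median log2 fold change was -0.62. The floxed exons are not named in the labels, and loss of the DNA itself was not measured here.

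**Figure D1:**
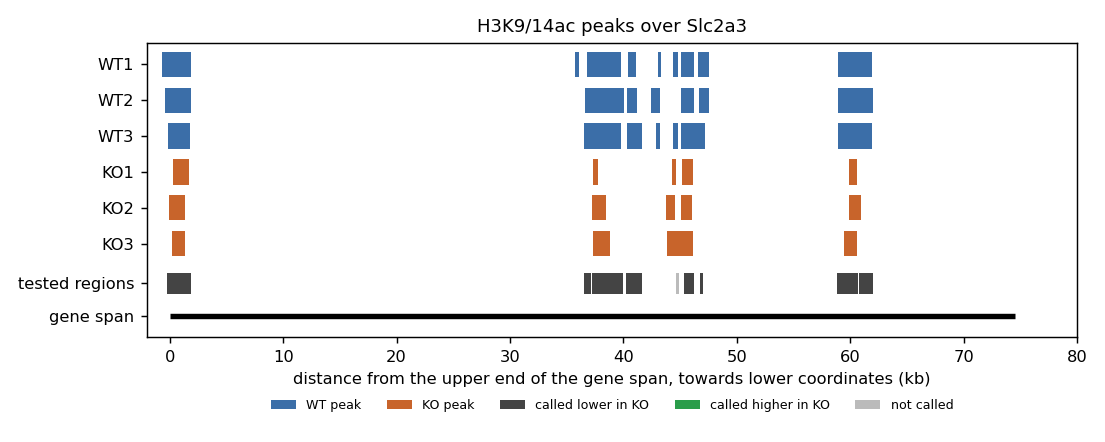
Peaks of each library over Slc2a3 (WT in blue, KO in orange), with the regions of the authors' deposited table and the gene span below; the horizontal axis is the distance in kb from the upper end of the span. KO peaks cover fewer bp than WT peaks on average at every block, and 2 blocks in the middle of the gene are present in all 3 WT libraries and in no KO library.

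Whether acetylation rose at the other 8 family members was read in several ways. The authors' deposited table called 4 of their 16 tested regions lower, 4 higher and 8 neither, and their median log2 fold change was -0.10, beside 46.3% lower, 12.7% higher and a median of -0.62 over all its regions. All 4 higher regions belonged to Slc2a9. Covered bp were lower in every KO library for 2 of these 8 members, an order found for 41.3% of genes with a peak, and higher in every KO library for none, an order found for 6.18%. Of their 10 blocks with a peak in all 6 libraries, the summit relative to mean coverage was higher in every KO library at 5, lower in every KO library at 2 and overlapping at 3. Over all 20107 such blocks these shares were 25.4% higher and 18.8% lower. The 5 higher blocks were at Slc2a1 and Slc2a9. The 2 lower blocks were at Slc2a9 and at the edge of the Slc2a8 window.

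**Figure D2:**
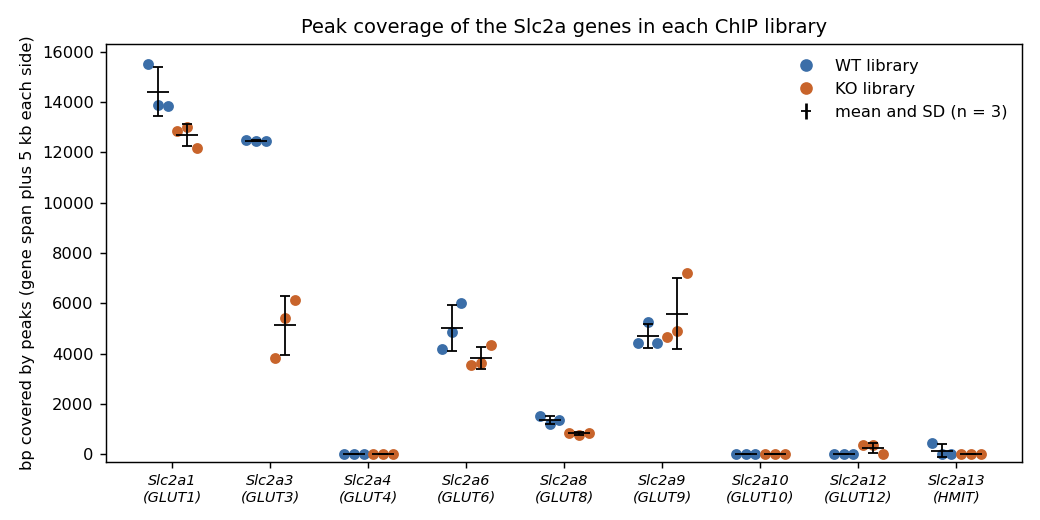
Base pairs covered by peaks over each gene span plus 5 kb to each side, per ChIP library (points) with the mean and SD of 3 libraries per genotype. Slc2a3 has the widest gap between genotypes, Slc2a1 and Slc2a8 lie lower in every KO library, and Slc2a4 and Slc2a10 are at 0.

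Slc2a1 encodes GLUT1, the transporter of basal glucose uptake, whose surface level rises when T cells are activated. On chromosome 4 (119108745 to 119137330) it carried the widest peak coverage of the family in WT, in a broad block over its start and another inside the gene. Covered bp were 15530, 13882 and 13832 in WT and 12859, 13025 and 12188 in KO. The KO libraries lay just below the WT libraries, with a ratio of 0.880 (exact permutation p = 0.1, two-sided, adjusted p = 0.233). The ratio over all peaks of the genome was 0.827. Expressed as a share of each library's covered bp the direction turned, and the KO mean was higher by 14.1 bp per Mb of peaks (exact permutation p = 0.1, two-sided). With peaks called on single reads the difference, KO minus WT, was -29.7 bp and the groups overlapped (exact permutation p = 1.0, two-sided).

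Summits over Slc2a1 were taller in KO relative to mean coverage. Over the start (119104194 to 119110653) they were 53.9, 53.1 and 53.2 in WT and 69.7, 69.9 and 80.7 in KO. The groups did not overlap, and the means were 53.4 ± 0.430 and 73.4 ± 6.31 (SD, n = 3 each), a ratio of 1.38 (exact permutation p = 0.1, two-sided). Inside the gene (119122113 to 119129964) the summits were 78.5, 82.7 and 72.4 in WT and 98.9, 113 and 96.9 in KO, a ratio of 1.32 (exact permutation p = 0.1, two-sided). These ratios were above those of 84.2% and 81.6% of all blocks, so ratios of this size were found at many other blocks. The authors' own fold enrichment of the strongest Slc2a1 peak, the intragenic one, was 10.2, 21.4 and 14.1 in WT and 25.4, 25.9 and 23.8 in KO. The mean log2 difference was 0.78 (exact permutation p = 0.1, two-sided, adjusted p = 0.25 over 5 members). Over 11992 genes with a peak in every library it had a median of -0.01 and ran from -0.52 to 0.50 between the 10th and 90th percentiles. When single libraries were left out the Slc2a1 difference ran from 0.53 (without WT replicate 1) to 1.07 (without WT replicate 2).

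The authors' deposited table called no Slc2a1 region higher. Its region over the Slc2a1 start (119104501 to 119110500) had a log2 fold change of -0.47 and was not called (FDR 0.506) in the authors' deposited table. That region also overlaps Gm52706, a long noncoding RNA gene, so the mark there cannot be assigned to Slc2a1 alone. The intragenic region 15.0 to 20.4 kb past the start (119123701 to 119129100) was called lower in the authors' deposited table, at -0.95 (FDR 0.000473). Only 8 of its 36 windows went down and 0 went up, and the table's value is that of the best window, not of the summit. The small regions before it, at 119120851 to 119121300 and 119122201 to 119123550, had 0.24 and 0.37 in the authors' deposited table and were not called. If libraries were scaled to equal mean coverage, each log2 fold change of the authors' deposited table would be 0.30 higher, which leaves the intragenic value at -0.65 and the start at -0.17. So the Slc2a1 summits were higher in KO relative to mean coverage while the best window of the intragenic region was lower on both scales, and the cause of the difference was not tested.

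**Figure D3:**
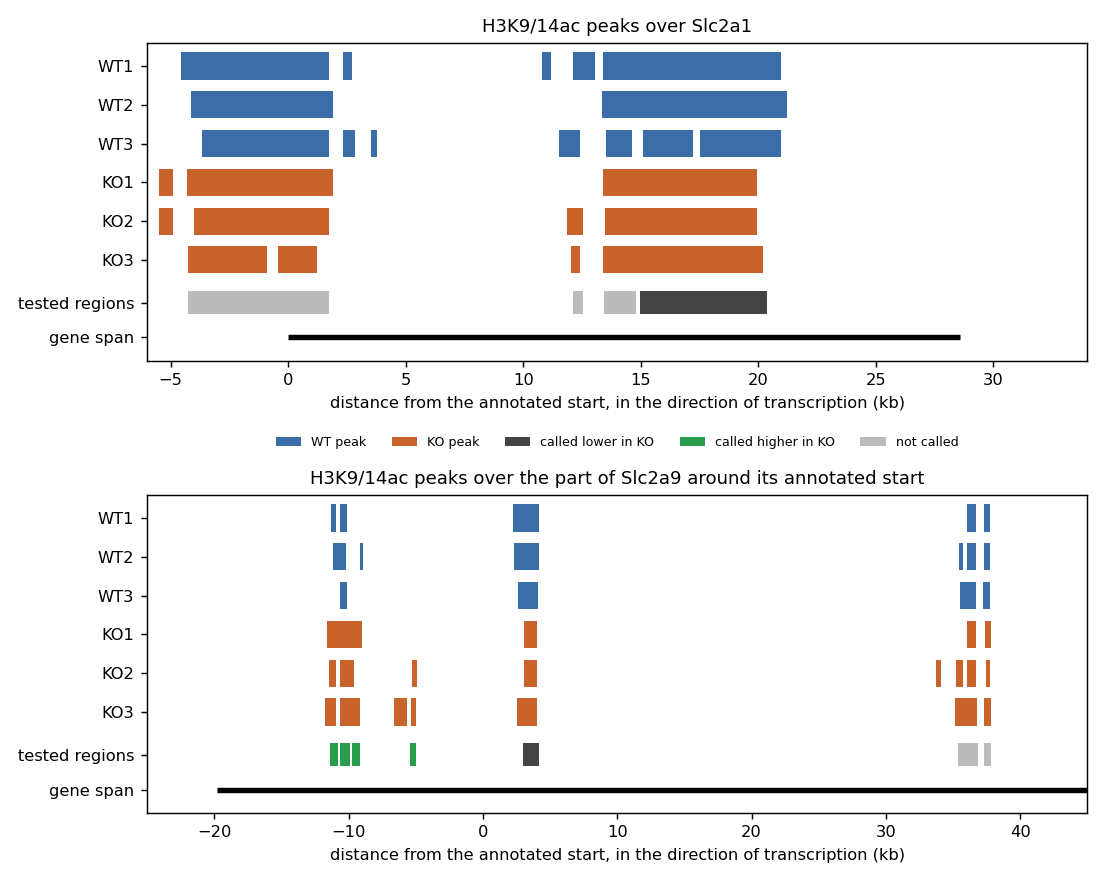
Peaks of each library over Slc2a1 (upper panel) and over the part of Slc2a9 around its annotated start (lower panel), against the distance in kb from that start in the direction of transcription; tested regions of the authors' deposited table are grey where not called, dark where lower and green where higher. The blocks over the Slc2a1 start and inside the gene are present in every library, smaller Slc2a1 peaks in only some, and the Slc2a9 peaks near -10 kb are wider in every KO library.

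Slc2a4 encodes GLUT4, the insulin-responsive transporter of muscle and fat. No library had a peak within 5 kb of it on chromosome 11 (69942286 to 69948216), and none of the tested regions lay there.

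Slc2a9, which encodes GLUT9, was the member with called gains. It spans 153.876 kb on chromosome 5 (38349272 to 38503147). RefSeq places the start of the promoter window inside this span, at 38483385 on the minus strand. Total coverage did not separate the genotypes. Covered bp were 4432, 5249 and 4417 in WT and 4664, 4886 and 7212 in KO, so the groups overlapped and KO replicate 3 was highest (ratio 1.19, exact permutation p = 0.5, two-sided, adjusted p = 0.583). Without KO replicate 3 the KO mean exceeded the WT mean by 75.7 bp, against 888 with it.

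The gains of Slc2a9 lay together, upstream of the annotated start but still within the gene span. At 38492291 to 38495161 the summits were 14.3, 12.3 and 11.4 times the mean coverage in WT and 34.1, 29.3 and 41.1 times in KO. The lowest KO summit was above the highest WT summit, and the ratio of means was 2.74 (exact permutation p = 0.1, two-sided). This was above the ratio of 99.1% of all blocks. By the authors' own fold enrichment the groups overlapped, at 6.84, 5.05 and 4.42 in WT and 13.7, 5.96 and 9.29 in KO. Peaks of the block covered a mean of 865 bp in WT and 2156 bp in KO. The 3 regions there, at 38492551 to 38493150, 38493301 to 38494050 and 38494201 to 38494800, were called higher, the authors' deposited table giving log2 fold changes of 1.06, 1.27 and 0.94 (FDR 0.00675, 1.39e-06 and 0.0360). The fourth, at 38488351 to 38488800, had 1.01 (FDR 0.00985) in the authors' deposited table, and 2 KO libraries but no WT library had a peak there. At least 4 higher regions, a criterion chosen after these values were seen, were found in 19.2% of the 902 genes with 7 or more tested regions. No other annotated gene overlaps the Slc2a9 regions.

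Other parts of Slc2a9 moved otherwise. The block at 38479213 to 38481120, just past the annotated start, had a lower summit relative to mean coverage in every KO library. Its summits were 41.9, 38.8 and 35.7 in WT and 27.6, 27.5 and 22.4 in KO, a ratio of 0.666 (exact permutation p = 0.1, two-sided). Its fold enrichment overlapped, at 7.13, 5.97 and 9.30 in WT and 4.04, 9.12 and 6.09 in KO. The region of this block (38479201 to 38480400) was called lower in the authors' deposited table, at -1.05 (FDR 7.98e-06). Further into the gene, the blocks at 38445584 to 38446146 and 38446595 to 38448233 had higher summits in every KO library, with ratios of 1.41 and 1.48. At both blocks the authors' fold enrichment overlapped between genotypes. For their regions the authors' deposited table gave 0.29 and 0.31 (log2 fold change) and no call. A weak block at 38368781 to 38369463 had summits of 4.82, 6.03 and 6.40 in WT and no peak in any KO library. So gains and losses occurred within 1 gene, and the tallest of its summits relative to mean coverage was the block past the start in all 3 WT libraries and the upstream block in all 3 KO libraries. By the authors' fold enrichment, KO replicate 2 had the block past the start as its strongest (9.12 against 5.96 upstream).

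**Figure D4:**
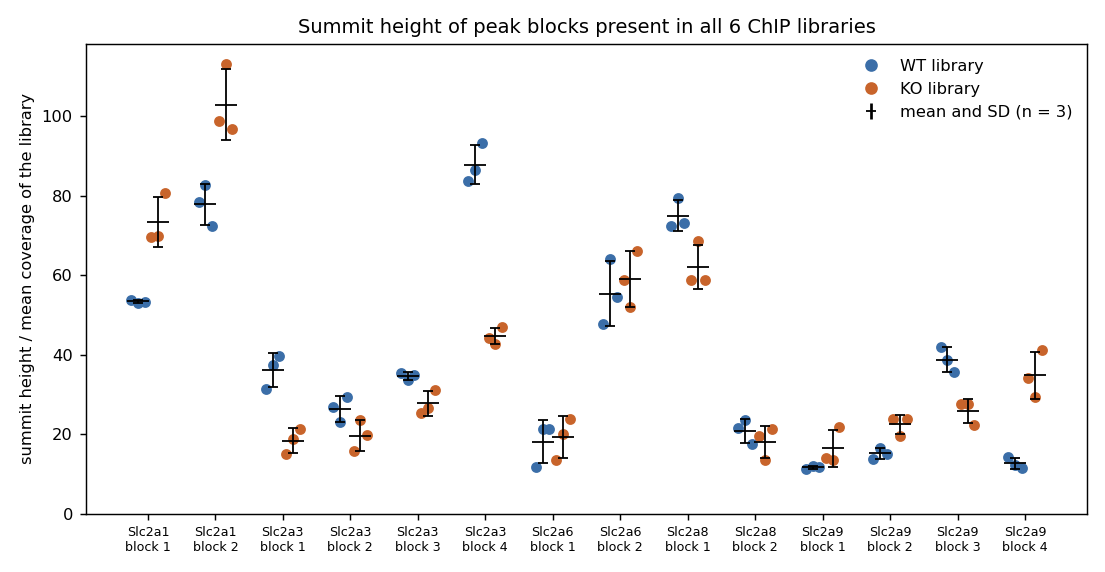
Summit height divided by the library's mean coverage for the 14 peak blocks of the family present in all 6 libraries, numbered within each gene by increasing coordinate; points are libraries, bars the mean and SD of 3 per genotype. Slc2a1 (both blocks) and Slc2a9 (blocks 1, 2 and 4) lie higher in every KO library, and 3 of the 4 Slc2a3 blocks lie lower.

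Among the class III members, Slc2a6 and Slc2a8 were acetylated at their starts. Slc2a6 encodes GLUT6, a transporter of leukocytes found on lysosomes, and lies on chromosome 2 (27021363 to 27028000). Covered bp were 4167, 4865 and 5996 in WT and 3549, 3619 and 4331 in KO, and the groups overlapped (ratio 0.765, exact permutation p = 0.2, two-sided, adjusted p = 0.35). Summits of the block over its start (27025871 to 27031414) were 47.6, 64.0 and 54.5 in WT and 58.9, 52.0 and 66.1 in KO. These groups overlapped as well, with a ratio of 1.07 (exact permutation p = 0.7, two-sided). All 3 regions of Slc2a6 had negative log2 fold changes, from -0.60 to -0.43, and none was called in the authors' deposited table. In the promoter window printed above, peaks covered all 300 bases in every library except KO replicate 1, where they covered 34.

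Slc2a8 encodes GLUT8, an intracellular hexose transporter of endosomes and lysosomes, and lies on chromosome 2 (32972981 to 32982083). Covered bp were 1527, 1200 and 1376 in WT and 850, 763 and 862 in KO. Each KO library was below each WT library, with a ratio of 0.603 (exact permutation p = 0.1, two-sided, adjusted p = 0.233), which was above that of 17.7% of genes. With single-read peaks the difference, KO minus WT, was -149 bp in place of -543 bp and the groups overlapped (exact permutation p = 0.7, two-sided). It also depended on the flank, being -164 bp over the gene span only (exact permutation p = 0.4, two-sided) and -1539 bp with 10 kb to each side (exact permutation p = 0.1, two-sided). The block over the start (32981175 to 32982685) had summits of 21.6, 23.5 and 17.5 in WT and 19.5, 13.5 and 21.4 in KO, which overlapped (ratio 0.868, exact permutation p = 0.4, two-sided). Its region (32981701 to 32982750) was called lower in the authors' deposited table, at -0.79 (FDR 0.0272). The second called region, with -1.54 (FDR 5.94e-08) in the authors' deposited table, overlaps the examined window by 70 bp and lies 4931 bp beyond the gene's lower end, and no annotated gene overlaps it. The block there (32965751 to 32967996) lies mostly outside the window and was among the lower blocks counted above. Its summits were 72.5, 79.5 and 73.1 in WT and 58.9, 68.6 and 58.9 in KO, a ratio of 0.828 (exact permutation p = 0.1, two-sided). Its fold enrichment overlapped, with means of 15.0 in WT and 17.2 in KO.

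The remaining class III genes carried little of the mark. Slc2a10, which encodes GLUT10, had no peak in any library on chromosome 2 (165503897 to 165519917). At Slc2a12, which encodes GLUT12, on chromosome 10 (22644990 to 22703880), KO replicates 1 and 2 shared a peak of 365 bp at the start, and no WT library had one. That peak was absent with single-read peaks and among peaks with -log10 q of at least 5. At Slc2a13, the HMIT gene on chromosome 15 (91267691 to 91573261), WT replicate 1 alone had a peak, of 427 bp near the start. None of these 3 genes had a tested region. A list of peaks shows only what passed the caller's threshold, so weaker acetylation there would not be seen.

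The rest of the cell's sugar handling was read from a list of 34 genes, each represented by its region of lowest FDR within 5 kb. Of these, 27 had a tested region, of which the authors' deposited table called 19 lower, 4 higher and 4 neither. Over all 13157 genes with a region, 67.5% were called lower and 11.8% higher by the same rule. The median log2 fold change of the list was -0.96, beside -0.88 over all genes, in the authors' deposited table. The other family members Slc2a2, Slc2a5 and Slc2a7 had no tested region.

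Among the sodium-coupled and other sugar transporters, the 2 genes with a tested region were called lower, and so were the 4 of the lactate carrier list. By the same rule, 67.5% of all genes with a tested region were called lower. The sugar kinase genes were called in both directions. All 4 genes of lactate transport were called lower in the authors' deposited table. The carriers were Slc16a3, the exporter of glycolytic cells, at -2.02, Slc16a7 at -1.37 and Slc16a1 at -1.36. Bsg, a chaperone of lactate carriers, had -1.16. The myo-inositol carrier gene Slc5a3 was called lower at -1.56 in the authors' deposited table, and the sugar exporter gene Slc50a1 at -0.64. Among the genes that trap or release sugar by adding or removing phosphate, Hk2, the hexokinase induced in activated T cells, was called lower at -1.15 in the authors' deposited table. Hk3 had -1.89, the fructokinase gene Khk -1.19 and the glucose-6-phosphatase gene G6pc3 -1.53 in the authors' deposited table, all called lower. Hk1, the constitutive hexokinase, was called higher at 1.74 in the authors' deposited table, with 4 of 7 regions higher and 0 lower. Its covered bp were 5499, 6532 and 4511 in WT and 6865, 8228 and 8284 in KO, without overlap.

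Genes that move GLUT proteins within the cell were split as well, the authors' deposited table calling 4 of 9 lower and 2 higher. Over all genes with a tested region these shares were 67.5% lower and 11.8% higher. Tbc1d1, a Rab GTPase-activating protein that restrains GLUT4, had -1.73, Rab10 -0.89, Aspscr1, which tethers GLUT4 vesicles, -0.76, and Txnip, which promotes GLUT1 endocytosis, -0.60 in the authors' deposited table. Snx27, a sorting nexin that returns GLUT1 to the surface, was called higher at 1.22 in the authors' deposited table. Its covered bp were 9161, 8625 and 8909 in WT and 11060, 11154 and 10544 in KO, so every KO library lay above every WT library. Arrdc4, an arrestin relative of Txnip, was called higher at 0.90 in the authors' deposited table, with overlapping covered bp. Tbc1d4, Vps35 and Stx4a were not called. Of the 8 transcription factor genes, 7 had a tested region, and the authors' deposited table called 5 of these 7 lower. They were Hif1a at -1.94, Mlxip at -1.28, Mlxipl at -1.15, Myc at -0.96 and Arnt at -0.82. Mef2a, a factor known to act on Slc2a4, was called higher at 1.26 in the authors' deposited table, with 7 of its 9 regions higher. Mlx was not called, and Klf15 had no tested region.

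**Figure D5:**
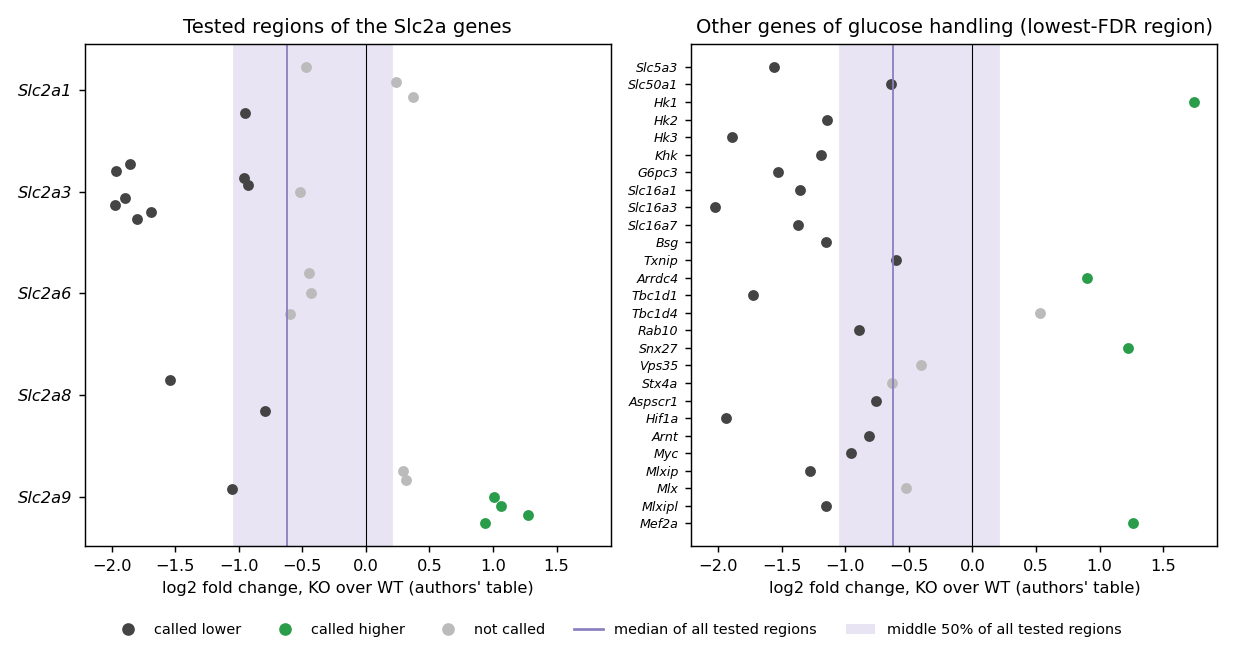
Log2 fold change, KO over WT, in the authors' deposited table for the 25 regions of the Slc2a genes (left) and for the region of lowest FDR of 27 other genes of glucose handling (right); the line is the median of all tested regions, -0.62, and the band their middle 50%. Slc2a3 regions lie left of the line except 1, and the 4 regions called higher in the left panel all belong to Slc2a9.

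Genes whose covered bp followed the pattern of a member most closely over the 6 libraries were listed by Euclidean distance, each gene being divided by its own WT mean and having a WT mean within 2 times that of the member. For Slc2a3 these were Galnt9 (distance 0.0388), Lbh, Atg10, Rgs16 and Dock11 (0.115), among 1936 candidates with a median distance of 0.773. Galnt9, for example, had 8742, 8885 and 8683 bp in WT and 2855, 3920 and 4086 bp in KO. For Slc2a1 they were Mdc1 (0.0545), Dennd11, Lgals1, Wee2 and D16Ertd472e (0.0730), among 1570 candidates with a median distance of 0.333. Mdc1 had 7739, 7177 and 7314 bp in WT and 6812, 6834 and 6247 bp in KO.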

How the data were processed

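H3K9/14ac was profiled by RELACS, in which chromatin is barcoded before samples are pooled. Among the tools in the submitters' processing notes are MACS2 2.2.6 and Bowtie2 2.3.5.1, with GRCm38 (mm10) as the build. No source used here gives the program or the scaling of the differential table. In the peak lists the authors deposited for each library, every peak has a score, a linear fold ratio over background, and a p-value and q-value as -log10, in the MACS2 layout. Lists called on paired-end fragments were used, and those on single reads as an alternative. The authors' deposited table gives for each region the best window's log2 fold change, a p-value with its FDR, and how many windows (counts) rose or fell. It holds no value per library, so nothing was refitted. Scores in the deposited list of significant regions come from the FDR.

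Gene spans were taken from RefSeq (GRCm38.p6). Of the table's regions 24128 had listed spans and 16569 were rebuilt from 150 bp windows under single-read peaks, a method that rebuilt 98.8% of listed spans exactly. Another 210 were placed by their best window and 2 were not located. Negative fold changes stood for lower KO acetylation: 99.9% of 2730 regions with a peak in 3 WT and 0 KO libraries were negative. Heights were solved from fold, taken as (height + 1) / (background + 1), and the Poisson p, and mean coverage is the lowest background value found at 50 or more peaks. Where 2 heights fit a peak, a whole one was taken unless the library is scaled. On simulated data 99.5% of 1950 whole and 96.4% of 1951 scaled heights returned within 5%. Table values followed recovered heights across 1310 regions, which are not independent replicates (r = 0.993), with the offset that gives the added 0.30. Counting error is not included, and fold and p are the authors' own.

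Differences between library means were tested by exact permutation (two-sided) with Benjamini-Hochberg adjustment, using Python 3.11.15, pandas 2.3.3 and scipy 1.17.1. All members are named, with the regions of lowest FDR, nearest the start and of lowest and highest fold change, and all called genes of the fixed list. Some genes of the lists are not reported here and were left out of their counts. Members and lists were chosen with earlier results of these data known. Alternatives are given in the closing section.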

Additional observations from a re-analysis of the deposited data

How the results depend on the processing

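Of the count results, 32 alternatives stayed within 1.5 times the count and 6 did not. Regions called lower in the authors' deposited table numbered 12 over the 9 members, 7 at coverage scaling when a log2 fold change of 1 or more in size was asked for, and 4 without Slc2a3. Regions called higher stayed at 4 or within 1.5 times that. Members with less coverage in every KO library numbered 3, and 1 with single-read peaks. Members with more numbered 0, and 2 (Slc2a1 and Slc2a9) when coverage was taken as a share of each library's covered bp, a choice made after seeing the data. When single libraries were left out this number ran from 0 to 1, being 1 without WT replicate 2 or KO replicate 3. Of the values per member, 8 reversed, and the cause was not tested except where named. The covered bp difference of Slc2a1 became 14.1 bp per Mb as a share. For Slc2a6 it became 111 bp with single-read peaks and 15.7 bp over the gene span only, and its strongest-peak log2 ratio, 0.23 by fold enrichment, became -0.074 with single-read peaks. The ratio of Slc2a8, 0.15, became -0.61 by height over mean coverage and ran from -0.75 to 0.75 when libraries were left out, with -0.75 without WT replicate 3 and -0.52 without KO replicate 2. In that gene the strongest peak is the one at the window's edge in only some libraries. The ratio of Slc2a9, 0.52, became -0.20 by height. With replicate numbers as a block, differences of means are the same by construction (Slc2a3 -7345 bp, exact paired sign-flip permutation p = 0.25, the smallest 3 pairs allow) and 4 members had less coverage in every pair. Same-numbered libraries did not deviate together (correlations across genes -0.17, -0.21 and 0.02), and differently numbered ones ran from -0.14 to 0.25. Such correlations cannot show whether libraries were prepared in pairs, and the labels do not say. The table's calls could not be rerun without a library. KO libraries were shallower, and how depth affected weak peaks was not tested.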
